A study of Mus musculus with 12 samples.

Results

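Sox, Fox and basic helix-loop-helix (bHLH) transcription factors were examined in FACS-sorted cells of the embryonic mouse cortex at 3 stages of neurogenesis (E11.5, E13.5 and E15.5, in days after conception). The members were taken by gene name (among others the Sox and Fox families, Hes, Hey, Id, Olig, Neurog, Bhlhe, the E proteins *Tcf3*, *Tcf4* and *Tcf12*, Twist, Hand, Npas, Arnt, and the *Myc* and Mxd families) from the authors' table of 4859 differentially expressed coding genes. The names matched 55 genes, 4 of which (*Sox2*, *Hes1*, *Hes5* and *Neurog2*) were left out by rule, and the remaining 51 are the members. Among these 51, 49 encode factors of the named families, while *Foxred2* (an endoplasmic reticulum flavoprotein) and *Sox2ot* (a long noncoding RNA that spans *Sox2*) were caught by their names only. They stay in the counts unless stated otherwise. Hand and Arnt names matched no gene of the table.

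The cells came from embryos of the Ebf2-EGFP reporter line, Tg(Ebf2-EGFP)FB58Gsat, in which a bacterial artificial chromosome drives EGFP from the regulatory region of *Ebf2*. Every group carries this transgene, and the labels name no other allele or treatment. Cells with EGFP (Ebf2-EGFP+, or EGFP+ in short) and without it (Ebf2-EGFP-, or EGFP-) were taken from dissected cortices at each stage, which makes 6 groups with 2 libraries each. EGFP first labels preplate neurons (subplate and Cajal-Retzius cells) and later stays on in Cajal-Retzius cells, and the Ebf2-EGFP- cells are whatever else the dissected cortex holds, so the make-up of both populations shifts with age. Embryos of several litters were pooled for each experiment, and the study describes the 2 libraries of a group as biological replicates. In bulk RNA, fewer cells of a type and less RNA per cell cannot be told apart.

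Sox proteins bind DNA through an HMG box and Fox proteins through a forkhead domain, while bHLH proteins pair with a partner and bind short motifs called E-boxes. In the embryonic cortex, SoxB proteins, SoxE proteins, the Notch-responsive Hes and Hey repressors and the Id proteins, which tie up E proteins, are known for holding cells in the progenitor state. Proneural bHLH factors commit progenitors to neurogenesis, and SoxC proteins and later bHLH factors act in the young neurons.

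Expression is given as FPKM (fragments per kilobase of transcript, scaled to the mapped fragments of the library), so levels can be compared between genes. Fold changes are differences between group means on the scale log2(FPKM + 1), which understates the change of genes with low FPKM, given with their standard error (SE), and each was tested with limma in a single fit of all 12 libraries with Benjamini-Hochberg adjustment over all 4859 genes. A member is called higher or lower when the adjusted p-value is under 0.05. The authors selected the table on differences between these same libraries, so a difference between the populations among its genes is not independent evidence of that difference. The files give no read counts, so the depth behind each value is unknown here. Between the 2 libraries of a group, Pearson's r across the listed genes lay between 0.981 and 0.992, and the p-values measure only the spread between these libraries. In the E15.5 EGFP- group, 36 of the 51 members (70.6%) were lower in replicate 2 than in replicate 1, where 63% of all genes were. The median log2 difference was -0.43 over the members and -0.10 over all genes.

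Marker genes were summed to describe the sorted populations. The 10 Cajal-Retzius markers (*Reln*, *Trp73*, *Calb2* and others, all listed) summed to 216 to 1278 FPKM in the EGFP+ libraries and to at most 26.4 FPKM in the EGFP- libraries. They include *Ebf2*, whose reporter defined the sort, and *Nhlh2*, which the study picked as a Cajal-Retzius gene from these same libraries. Their sum is therefore no independent check of the sort. The 8 radial glia markers summed to 416 to 439, 203 to 224 and 89.8 to 153 FPKM in EGFP+ cells at the 3 stages in order, against 1358 to 1645, 1065 to 1578 and 467 to 832 FPKM in EGFP- cells. The 6 cell cycle markers summed to 227 to 249, 92.5 to 135 and 52.4 to 54.9 FPKM in EGFP+ cells, against 836 to 955, 433 to 703 and 132 to 209.8 FPKM in EGFP- cells. None of these markers was at 0 in both libraries of any group. At E11.5, the 7 cortical plate neuron markers summed to 455 to 508 FPKM in EGFP+ cells and to 48.7 to 51.7 FPKM in EGFP- cells, and at E15.5 to 804 to 1194 and 787 to 944 FPKM. The 3 listed erythroid markers summed to 1205 to 2605 FPKM in EGFP- and 31.2 to 88.6 FPKM in EGFP+ cells at E11.5. Aif1, the 1 listed microglia marker, was highest in EGFP+ cells at E15.5, at 2.87 to 2.92 FPKM. It stood at 0.626 to 0.773 FPKM in EGFP- cells of that stage and at 0.272 to 0.359 FPKM in E11.5 EGFP+ cells. Whether these marker levels have a part in the member differences described next was not tested.

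Most members were lower in EGFP+ cells. At E11.5, 29 members were called lower and 10 higher, where 44.9% and 36.8% of all 4859 listed genes were called in those directions. At E13.5, 27 were called lower and 7 higher (43.5% and 32.1% of all genes). At E15.5, 31 were called lower and 2 higher (31.6% and 25.8% of all genes). The median member differed by -0.64, -0.51 and -0.74 on the log2 scale at the 3 stages, and the median listed gene by -0.19, -0.19 and -0.11. Without *Foxred2* and *Sox2ot*, 27, 25 and 29 of 49 factors were called lower and the counts of higher calls stayed at 10, 7 and 2.

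**Figure D1:**
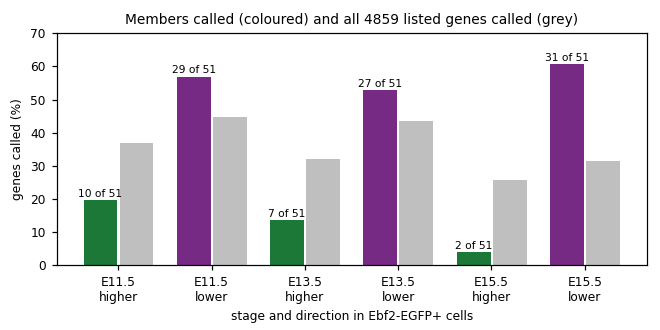
Percentage of genes called higher or lower in Ebf2-EGFP+ than in Ebf2-EGFP- cells at each stage (limma adjusted p under 0.05), for the 51 members (coloured bars, with their number) and for all 4859 listed genes (grey bars). The share of members called higher falls from 10 of 51 at E11.5 to 2 of 51 at E15.5.

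Lower at every stage were 23 members, 45.1% of the 51, where 21.8% of all listed genes were. No member was called higher at all 3 stages, where 711 listed genes (14.6%) were. Of the 10 members higher at E11.5, *Bhlhe22*, *Mxd4* and *Myc* were still called higher at E13.5, and at E15.5 none was. *Mxd1* and *Sox11* had turned to lower by then, and *Foxj1*, *Foxo3*, *Foxp2*, *Sox4* and *Twist2* were called at E11.5 alone. *Npas2* and *Sox5* showed the other order, with no call at E11.5 and a higher level at E13.5 and E15.5. At 1 stage or more 47 members were called (97.4% of all genes were), and 4, among them *Foxo6*, *Foxp4* and *Mycl1*, were called at none.

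**Figure D2:**
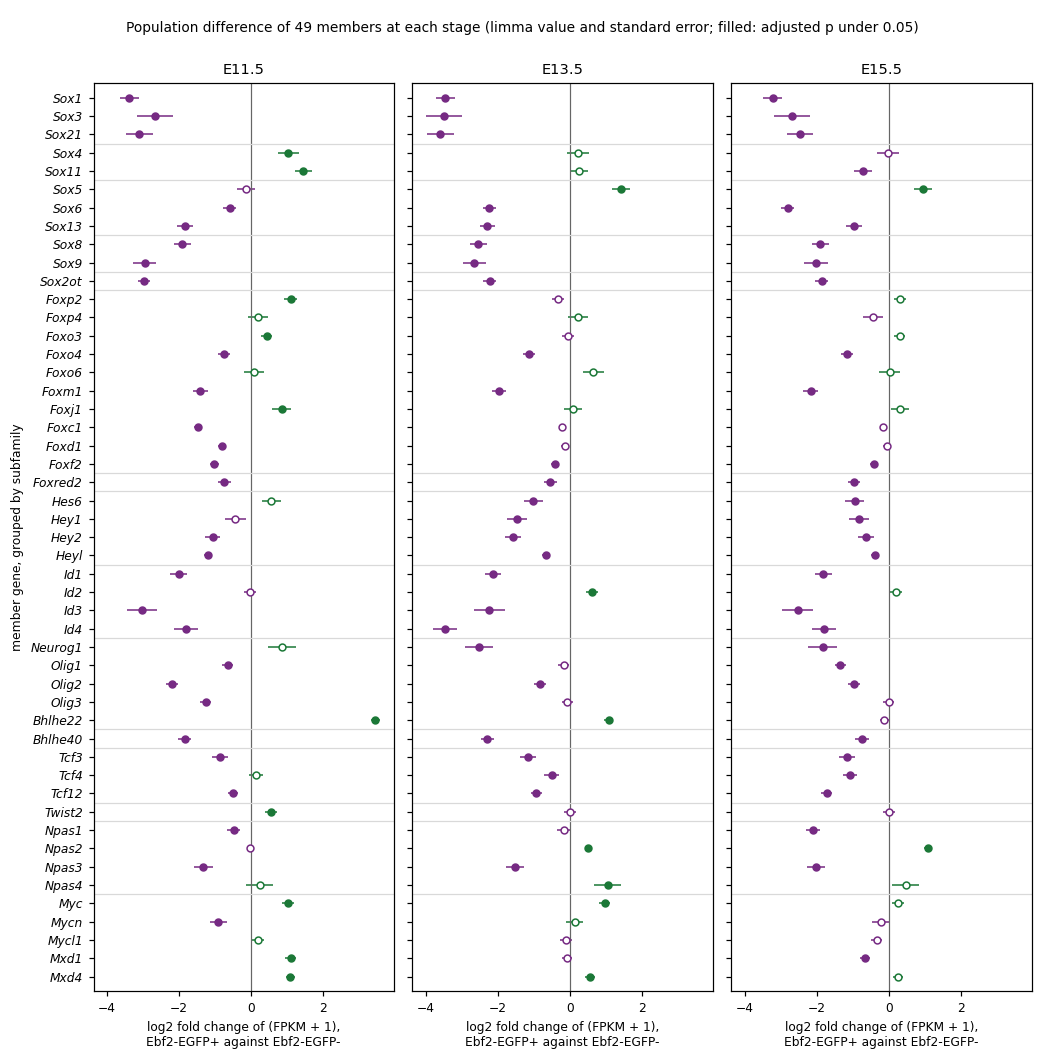
Log2 fold change of FPKM + 1 between Ebf2-EGFP+ and Ebf2-EGFP- cells (horizontal axis) for 49 of the 51 members, grouped by subfamily, in a panel for each stage. Points are limma values with standard errors, green for higher and purple for lower in Ebf2-EGFP+ cells, and filled points have an adjusted p under 0.05. *Sox1*, *Sox3*, *Sox21*, *Sox8* and *Sox9* lie to the left at every stage, and *Bhlhe22* at E11.5 lies farthest to the right, at 3.47.

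The SoxB genes, which encode factors that hold neural progenitors in an undifferentiated state (*Sox1* and *Sox3*) or act against them (*Sox21*), were lower in EGFP+ cells at all 3 stages. *Sox1* (chr8:12395295-12400126 in GRCm38) measured 4.07 and 3.87 FPKM (E11.5), 2.42 and 1.53 FPKM (E13.5), then 0.938 and 0.556 FPKM (E15.5) in EGFP+ cells, against 56.6 and 45.3 FPKM (E11.5), 36.3 and 27.3 FPKM (E13.5), then 20.5 and 11.3 FPKM (E15.5) in EGFP- cells. All 6 EGFP- libraries lay above all 6 EGFP+ libraries. The log2 fold change was -3.38 (SE 0.27, limma adjusted p = 9.17e-07) at E11.5, and -3.47 and -3.23 at the later stages. *Sox3*, on chromosome X, measured 7.32 and 6.37 FPKM (E11.5), 3.69 and 2.34 FPKM (E13.5), then 1.53 and 0.706 FPKM (E15.5) in EGFP+ cells and 52.3 and 45.7 FPKM (E11.5), 58.5 and 32.7 FPKM (E13.5), then 26.0 and 5.68 FPKM (E15.5) in EGFP- cells. Its EGFP- libraries differed widely at E15.5, yet both stood above the 2 EGFP+ libraries of that stage. For *Sox21*, EGFP+ libraries held 3.4002 and 2.19 FPKM (E11.5), 2.33 and 1.47 FPKM (E13.5), then 0.856 and 0.282 FPKM (E15.5), and EGFP- libraries 40.6 and 24.0 FPKM (E11.5), 42.3 and 27.1 FPKM (E13.5), then 11.4 and 4.89 FPKM (E15.5). Fold changes of *Sox3* and *Sox21* ranged from -3.60 to -2.47 on the log2 scale. All 3 SoxB genes also fell with age in both populations, with log2 changes of *Sox1* between E11.5 and E15.5 of -1.52 in EGFP+ and -1.67 in EGFP- cells. The fall of *Sox21* in EGFP+ cells lost its call without the E11.5 replicate 1 (log2 -1.05, adjusted p = 0.071) or the E15.5 replicate 2 (log2 -1.01, adjusted p = 0.0672). *Sox21* shares 18.8% of its exon bases with an antisense gene, *Gm4675*, and the strand setting of the authors' counting is not given in the sources used here.

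The SoxE genes were lower in EGFP+ cells at all 3 stages, and with age *Sox9* fell in both populations while *Sox8* was called in neither. *Sox9*, known for its role in neural stem cells and in gliogenesis, measured 5.45 and 4.72 FPKM (E11.5), 6.72 and 5.53 FPKM (E13.5), then 2.88 and 2.12 FPKM (E15.5) in EGFP+ cells, against 52.1 and 40.8 FPKM (E11.5), 50.9 and 37.9 FPKM (E13.5), then 20.8 and 8.23 FPKM (E15.5) in EGFP- cells. The log2 fold change moved from -2.96 (SE 0.32, limma adjusted p = 6.98e-06) at E11.5 to -2.03 (SE 0.32, limma adjusted p = 0.000301) by E15.5. The change of this difference with age was not called in the fit of all 12 libraries. Under another scaling of the libraries (log2 1.16, limma adjusted p = 0.0301) and without E15.5 EGFP- replicate 1 (log2 1.55), it was called for *Sox9*. *Sox8*, its paralog, measured 0.171 and 0.1502 FPKM (E11.5), 0.262 and 0.215 FPKM (E13.5), then 0.325 and 0.278 FPKM (E15.5) in EGFP+ cells and 3.72 and 3.002 FPKM (E11.5), 6.46 and 6.02 FPKM (E13.5), then 5.66 and 2.54 FPKM (E15.5) in EGFP- cells. Both SoxE genes were therefore lower in EGFP+ cells in every library of every stage. *Sox8* was not called between E11.5 and E15.5 in either population, with log2 changes of 0.17 (95% interval -0.34 to 0.67) and 0.16 (-0.35 to 0.67). The sign of the latter rested on which E15.5 EGFP- library was kept, with a rise without replicate 2 (log2 0.62, adjusted p = 0.00538) and a negative value, not called, without replicate 1 (log2 -0.30, adjusted p = 0.117). The log2 change of *Sox9* with age was -1.73 (SE 0.32, limma adjusted p = 0.000317) in EGFP- cells. Its fall in EGFP+ cells, -0.80 (SE 0.32, limma adjusted p = 0.0395), lost its call whichever of its 4 libraries was left out (log2 from -0.96 to -0.64, adjusted p from 0.0543 to 0.173). *Sox2ot* was lower in EGFP+ cells at all 3 stages too, with 0.875 and 0.974 FPKM (E11.5), 0.388 and 0.663 FPKM (E13.5), then 1.30 and 1.22 FPKM (E15.5) in EGFP+ cells and 12.7 and 15.8 FPKM (E11.5), 6.73 and 5.56 FPKM (E13.5), then 7.002 and 7.48 FPKM (E15.5) in EGFP- cells, and log2 fold changes of -2.98, -2.23 and -1.87.

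*Sox4* and *Sox11*, the SoxC genes, which activate neuronal genes in newborn neurons, stood higher in EGFP+ than in EGFP- cells at E11.5 and no longer at E15.5. At each stage 1 of them had the highest mean FPKM of all members in EGFP+ cells. *Sox11* (chr12:27334264-27342574) measured 345 and 333 FPKM (E11.5), 275 and 307 FPKM (E13.5), then 304 and 210.3 FPKM (E15.5) in EGFP+ cells, and 123 and 122 FPKM (E11.5), 207 and 288 FPKM (E13.5), then 521 and 329.5 FPKM (E15.5) in EGFP- cells. The populations did not overlap at E11.5, and at E15.5 their order was the opposite one, again with no overlap. Its log2 fold change went from 1.47 (SE 0.24, limma adjusted p = 0.00016) at E11.5 through 0.25 (adjusted p = 0.362) at E13.5 to -0.71 (SE 0.24, limma adjusted p = 0.0267) at E15.5. With the replicate number as a block, which pairs the same-numbered EGFP+ and EGFP- libraries of a stage (a pairing inferred from the data and not stated by the labels), the E13.5 value was called as higher (adjusted p = 0.0457). The E15.5 call was lost without EGFP+ replicate 2 (log2 -0.44, adjusted p = 0.204) or EGFP- replicate 1 (log2 -0.38, adjusted p = 0.243), and with only the E15.5 groups in the fit (adjusted p = 0.115). The change of the population difference from E11.5 to E15.5 was -2.18 (SE 0.35, limma adjusted p = 0.000341). Within the populations, *Sox11* rose by 1.75 in EGFP- cells, while the log2 change in EGFP+ cells was -0.42 (adjusted p = 0.134) and passed the test only without the E15.5 replicate 1 (log2 -0.69, adjusted p = 0.047).

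*Sox4* (chr13:28948919-28953713) measured 274 and 245 FPKM (E11.5), 375 and 427 FPKM (E13.5), then 735 and 405 FPKM (E15.5) in EGFP+ cells, against 128 and 123 FPKM (E11.5), 337 and 344 FPKM (E13.5), then 749.9 and 406 FPKM (E15.5) in EGFP- cells. It was higher in EGFP+ cells at E11.5, by 1.04 (SE 0.30, limma adjusted p = 0.00641), and the E15.5 values of the 2 populations spanned almost the same range. The later log2 fold changes were 0.23 (adjusted p = 0.49, or 0.0475 with the block) and -0.016 (95% interval -0.66 to 0.63). From E11.5 to E15.5 *Sox4* rose by 1.07 in EGFP+ cells and by 2.13 in EGFP- cells. The first of these lost its call without the E15.5 replicate 1 (log2 0.64, adjusted p = 0.0801). The difference between the 2 rises, -1.06 (SE 0.42, limma adjusted p = 0.0466), was lost in 6 of the 8 omissions of 1 library, with E11.5 EGFP+ replicate 1 or 2, E15.5 EGFP+ replicate 2, E11.5 EGFP- replicate 1 or 2, or E15.5 EGFP- replicate 1 left out (log2 from -1.14 to -0.61, adjusted p from 0.0788 to 0.191). It was also lost under another scaling of the libraries (log2 -0.82, adjusted p = 0.0814) and with only the compared groups in the fit (adjusted p = 0.0752). An antisense gene, *Gm26735*, shares 54.6% of the exon bases of *Sox4*, so the FPKM of *Sox4* may hold reads of both.

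The bases upstream of *Sox4* and *Sox11* are shown because 1 of these 2 genes was the most abundant member of EGFP+ cells at each stage, and both windows hold the E-box CAGCTG, a motif bound by proneural and other bHLH pairs. Sequences are from RefSeq (GRCm38.p6), read on the strand of the gene and ending at or before its start, and capitals mark CAGCTG and the N-box (CACNAG on either strand), a motif bound by Hes proteins.
Sox4, chr13:28953714-28953949, minus strand: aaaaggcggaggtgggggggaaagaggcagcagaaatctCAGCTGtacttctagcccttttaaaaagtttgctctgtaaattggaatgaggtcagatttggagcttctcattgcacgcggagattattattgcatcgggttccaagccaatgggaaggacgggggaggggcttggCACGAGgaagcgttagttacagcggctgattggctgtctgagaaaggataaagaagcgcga
Sox11, chr12:27342719-27342968, minus strand: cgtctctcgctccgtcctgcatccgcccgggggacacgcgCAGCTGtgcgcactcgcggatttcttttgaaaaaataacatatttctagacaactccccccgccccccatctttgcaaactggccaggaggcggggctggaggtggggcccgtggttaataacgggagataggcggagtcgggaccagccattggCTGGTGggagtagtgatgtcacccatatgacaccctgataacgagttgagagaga
RefSeq promoter entries were found for 33 of the 51 members, and the motifs were searched on both strands in the 250 bases before the start. A gene was counted when any of its promoter entries held the motif. CAGCTG stood in 8 of the 33 (24.2%) and in 14.7% of all 27025 genes with a promoter entry. The 8 were *Foxf2*, *Npas3*, *Sox6* and *Tcf12*, which were lower at all 3 stages, and *Hes6*, *Id2*, *Sox11* and *Sox4*, which were not. The N-box stood in 11 of 33 (33.3%, against 40.1% of all genes with a promoter entry). A match describes the letters of the window and not a bound site.

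The SoxD genes *Sox5* and *Sox6* parted. *Sox5*, which controls the timing and identity of deep-layer and subplate neurons, measured 8.78 and 11.1 FPKM (E11.5), 69.9 and 82.1 FPKM (E13.5), then 63.7 and 49.4 FPKM (E15.5) in EGFP+ cells, and 11.503 and 10.4 FPKM (E11.5), 22.1 and 34.4 FPKM (E13.5), then 35.2 and 23.0 FPKM (E15.5) in EGFP- cells. The 4 libraries of E11.5 overlapped, and at E13.5 and E15.5 both EGFP+ libraries stood above both EGFP- libraries. The log2 fold change was -0.14 (adjusted p = 0.612) at E11.5, 1.42 (SE 0.24, limma adjusted p = 0.000279) for E13.5 and 0.95 (SE 0.24, limma adjusted p = 0.00567) at E15.5. The E15.5 call was lost without EGFP+ replicate 1 (log2 0.77, adjusted p = 0.051) or EGFP- replicate 2 (log2 0.66, adjusted p = 0.0508). *Sox5* rose with age in both populations, by 2.39 in EGFP+ and by 1.31 in EGFP- cells, and the rises differed by 1.09 (SE 0.34, limma adjusted p = 0.0167). That difference was lost without E11.5 EGFP+ replicate 1, E15.5 EGFP+ replicate 1, E11.5 EGFP- replicate 1 or E15.5 EGFP- replicate 2 (log2 from 0.79 to 1.02, adjusted p from 0.0546 to 0.0697).

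*Sox6*, a SoxD gene active in pallial progenitors and in interneurons, measured 16.4 and 14.4 FPKM (E11.5), 4.38 and 3.26 FPKM (E13.5), then 0.842 and 0.709 FPKM (E15.5) in EGFP+ cells, against 25.3 and 22.0 FPKM (E11.5), 22.2 and 21.1 FPKM (E13.5), then 13.3 and 9.92 FPKM (E15.5) in EGFP- cells. The gap widened with age, at log2 -0.58, -2.24 and -2.82 (SE 0.18, limma adjusted p = 8.68e-07). The smallest of them, at E11.5, lost its call without EGFP+ replicate 2 (log2 -0.50, adjusted p = 0.0786) or EGFP- replicate 1 (log2 -0.49, adjusted p = 0.0828). From E11.5 to E15.5 *Sox6* fell in both populations, with log2 changes of -3.21 in EGFP+ and -0.97 in EGFP- cells, and the test of that difference gave -2.23 (SE 0.26, limma adjusted p = 4.68e-05). The third SoxD gene, *Sox13*, measured 2.04 and 2.05 FPKM (E11.5), 0.586 and 0.424 FPKM (E13.5), then 0.351 and 0.295 FPKM (E15.5) in EGFP+ cells and 9.70 and 10.2 FPKM (E11.5), 6.93 and 5.83 FPKM (E13.5), then 2.42 and 0.973 FPKM (E15.5) in EGFP- cells. It was lower in EGFP+ cells throughout, at log2 -1.84, -2.29 and -0.97. The change of this difference with age, 0.87 (limma adjusted p = 0.0307), was lost in 7 of 8 omissions, all but that of E15.5 EGFP- replicate 1 (log2 from 0.47 to 0.90, adjusted p from 0.0571 to 0.117), and with a pseudocount of 0.1 (log2 0.26, adjusted p = 0.667).

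**Figure D3:**
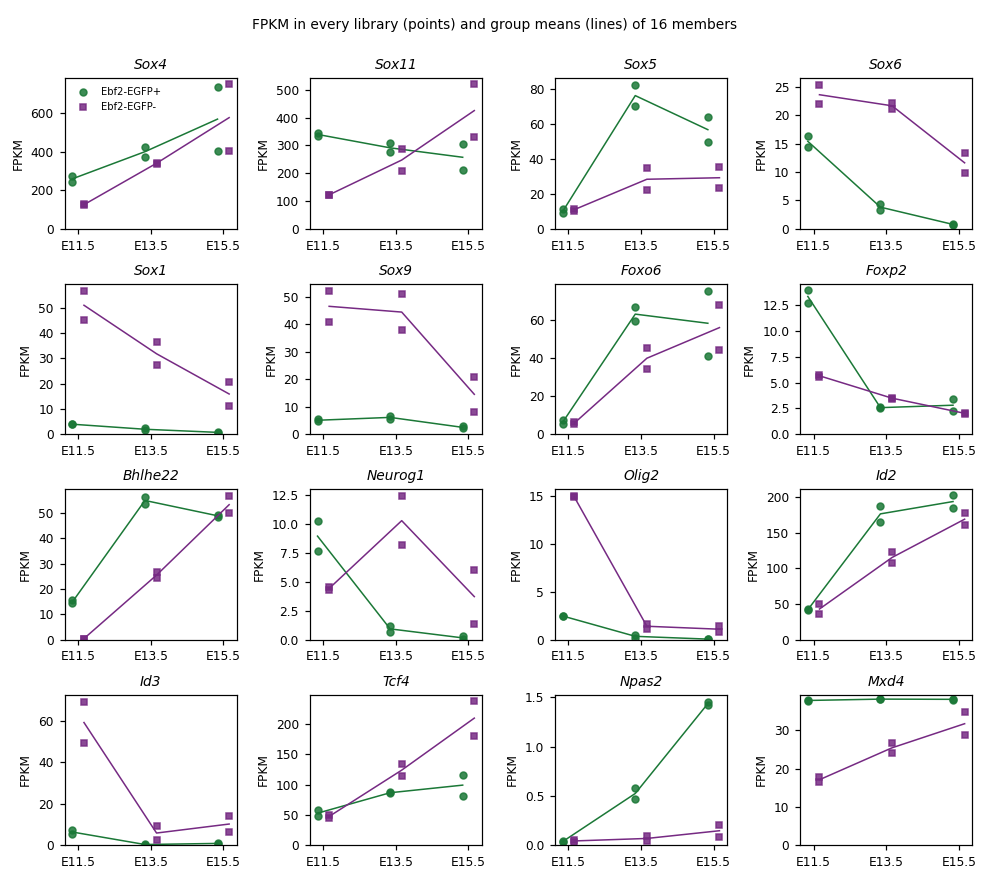
FPKM (vertical axes, linear and from 0) of 16 members in every library of the 3 stages, with green circles for Ebf2-EGFP+ and purple squares for Ebf2-EGFP- libraries and lines through the group means of 2 libraries. *Sox11* and *Neurog1* change their order between the populations with age, *Bhlhe22* of Ebf2-EGFP- cells reaches the Ebf2-EGFP+ level, and *Mxd4* stays between 37.8 and 38.2 FPKM in Ebf2-EGFP+ cells.

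Among the 11 Fox genes, 5 were lower and 3 higher in EGFP+ cells at E11.5, and 3 were lower and none higher at E13.5 and E15.5. The shares of all listed genes called lower were 44.9%, 43.5% and 31.6% at the 3 stages, and those called higher 36.8%, 32.1% and 25.8%, so the E11.5 share of lower Fox genes was near that of all genes. *Foxp2*, which marks deep-layer neurons, was higher in EGFP+ cells at E11.5 (12.7 and 14.0 FPKM against 5.55 and 5.78 FPKM), by 1.11 (SE 0.18, limma adjusted p = 0.000116). From E11.5 to E15.5 it fell in both populations (log2 -1.93 in EGFP+ and -1.14 in EGFP- cells). The E15.5 difference, 0.31, was called only without EGFP+ replicate 1 (log2 0.54, adjusted p = 0.0349). Its relative *Foxp4* measured between 17.9 and 42.3 FPKM in all libraries and was called in none of the 6 comparisons. At E15.5, the *Foxp4* difference of -0.44 was called lower with the block (adjusted p = 0.00693) and without EGFP+ replicate 1 (log2 -0.91, adjusted p = 0.0138).

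The Foxo genes, whose products act downstream of insulin and Akt signalling, differed from each other. *Foxo6* measured 5.21 and 7.47 FPKM (E11.5), 59.4 and 67.1 FPKM (E13.5), then 75.6 and 41.2 FPKM (E15.5) in EGFP+ cells, and 5.53 and 6.19 FPKM (E11.5), 34.4 and 45.6 FPKM (E13.5), then 67.9 and 44.4 FPKM (E15.5) in EGFP- cells. It rose with age in both populations, by 2.97 (SE 0.28, limma adjusted p = 2.85e-06) and 3.03 (SE 0.28, limma adjusted p = 1.71e-06), and the 2 rises differed by -0.057 (95% interval -0.93 to 0.82). At E13.5 its population difference, 0.66 (SE 0.28, limma adjusted p = 0.051), was close to the threshold and was called higher with the block (adjusted p = 0.000473), with only the E13.5 groups in the fit (adjusted p = 0.0182), under the other scaling (log2 0.74, adjusted p = 0.0238), among genes with a mean of at least 1 FPKM (adjusted p = 0.0488) and without EGFP- replicate 2 (log2 0.86, adjusted p = 0.0451). *Foxo4* was lower in EGFP+ cells at all 3 stages, at log2 -0.75, -1.13 and -1.17. *Foxo3* was higher at E11.5 by 0.44 (SE 0.16, limma adjusted p = 0.025), a call lost under the other scaling (log2 0.28, adjusted p = 0.161) and without EGFP+ replicate 2 (log2 0.35, adjusted p = 0.144) or EGFP- replicate 2 (log2 0.31, adjusted p = 0.177).

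*Foxm1*, which drives genes of the G2 and M phases, measured 14.9 and 15.7 FPKM (E11.5), 6.34 and 4.30 FPKM (E13.5), then 0.732 and 0.789 FPKM (E15.5) in EGFP+ cells, and 43.6 and 40.7 FPKM (E11.5), 26.0 and 21.0 FPKM (E13.5), then 8.31 and 5.74 FPKM (E15.5) in EGFP- cells. It was lower in EGFP+ cells at every stage, at log2 -1.41, -1.97 and -2.17 (SE 0.20, limma adjusted p = 8.3e-06), and fell with age in both populations (log2 -3.21 and -2.45). The 6 cell cycle markers, whose sums are given above with the other marker lists, had the same order of populations at each stage. *Foxj1*, the regulator of motile cilia, measured 16.3 and 15.4 FPKM (E11.5), 3.96 and 2.36 FPKM (E13.5), then 3.82 and 1.96 FPKM (E15.5) in EGFP+ cells, and 8.28 and 8.37 FPKM (E11.5), 3.05 and 2.64 FPKM (E13.5), then 2.60 and 1.57 FPKM (E15.5) in EGFP- cells. It was higher in EGFP+ cells at E11.5 (log2 0.86, SE 0.26, limma adjusted p = 0.00908) and fell in both populations afterwards. The 3 listed choroid plexus markers other than *Foxj1* had the other order at E11.5, with a sum of 5.49 to 5.92 FPKM in EGFP+ and of 57.7 to 80.5 FPKM in EGFP- cells.

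*Foxc1*, *Foxd1* and *Foxf2*, known from mesenchyme, meninges and pericytes, were lower in EGFP+ cells at E11.5, where their EGFP- libraries held 2.50 and 3.04 FPKM (*Foxc1*), 1.81 and 2.24 FPKM (*Foxd1*), and 1.06 and 1.39 FPKM (*Foxf2*). At E13.5 and E15.5 no library of either population reached 1 FPKM of any of the 3. *Foxf2* was called lower at all 3 stages (-1.01, -0.42 and -0.41), at E13.5 not without EGFP+ replicate 2 (log2 -0.30, adjusted p = 0.0714). With a pseudocount of 0.1 in place of 1, *Foxc1* was also called lower at E13.5 (-1.17, adjusted p = 0.00389) and E15.5 (-0.96, adjusted p = 0.0158), and *Foxd1* at E13.5 (-0.91, adjusted p = 0.012). The 6 listed markers of meninges or fibroblasts apart from these genes summed to 112 to 131 FPKM in EGFP- and to 42.9 to 48.5 FPKM in EGFP+ cells at E11.5, and to at most 5.60 FPKM later. The 5 listed endothelial or pericyte markers summed to 10.3 to 15.1 FPKM and to 1.51 to 2.13 FPKM at E11.5. Their part in the Fox values was not tested. *Foxred2*, caught by its name, was lower in EGFP+ cells at each stage and rose with age in both populations. Its E13.5 difference of -0.54 was lost without EGFP+ replicate 1 (log2 -0.47, adjusted p = 0.0892) or EGFP- replicate 2 (log2 -0.38, adjusted p = 0.116), and with only the E13.5 groups in the fit (adjusted p = 0.0518).

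The Hes and Hey genes were all called lower in EGFP+ cells at E13.5 and E15.5, and at E11.5 *Hey2* and *Heyl* were. *Hey2*, a repressor downstream of Notch, measured 0.236 and 0.6004 FPKM in EGFP+ and 1.71 and 2.18 FPKM in EGFP- cells at E11.5, which gave -1.06 (SE 0.21, limma adjusted p = 0.000593), followed by -1.58 and -0.63. The E15.5 call of *Hey2* was lost without EGFP+ replicate 1 (log2 -0.64, adjusted p = 0.0733) or 2 (log2 -0.63, adjusted p = 0.0745), without EGFP- replicate 1 (log2 -0.31, adjusted p = 0.238) and with only the E15.5 groups in the fit (adjusted p = 0.0613). *Hey1* was not called at E11.5 (-0.43, adjusted p = 0.179), where the block (adjusted p = 0.00705), the other scaling (-0.61, adjusted p = 0.0433) and a fit of the E11.5 groups alone (adjusted p = 0.0287) called it lower. At E13.5 its log2 fold change was -1.46 (SE 0.29, limma adjusted p = 0.000698). At E15.5 its call (-0.83) was lost without EGFP+ replicate 2 (log2 -0.62, adjusted p = 0.16), without EGFP- replicate 1 (log2 -0.42, adjusted p = 0.252) and with only the E15.5 groups (adjusted p = 0.0914). *Heyl* stayed under 2 FPKM in every library, with log2 fold changes of -1.21, -0.67 and -0.37, the last one lost without EGFP- replicate 2 (log2 -0.25, adjusted p = 0.105).

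*Hes6*, which acts against *Hes1* and favours neuronal differentiation, was the exception of this group at E11.5. It measured 84.1 to 105 FPKM in EGFP+ cells and 60.7 to 65.4 FPKM in EGFP- cells at that stage, and the log2 difference of 0.57 missed the threshold (limma adjusted p = 0.0591) and passed it with the block (adjusted p = 0.000588) and with only the E11.5 groups (adjusted p = 0.00654). At E13.5 and E15.5 it was lower, at log2 -1.01 and -0.95. Those calls were lost without E13.5 EGFP+ replicate 2 (log2 -0.74, adjusted p = 0.0504), and without E15.5 EGFP+ replicate 2 (log2 -0.68, adjusted p = 0.0799) or EGFP- replicate 1 (log2 -0.69, adjusted p = 0.0766). The change of its population difference from E11.5 to E15.5 was -1.52 (SE 0.37, limma adjusted p = 0.00423).

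The promoter of *Hey2* is shown because its window held a site for *Rbpj*, the DNA-binding partner of Notch. Members without a promoter entry could not be searched, so a Hes or Hey gene missing from the matches does not necessarily lack the site. The capitals mark that site (GTGGGAA on either strand).
Hey2, chr10:30842802-30843033, minus strand: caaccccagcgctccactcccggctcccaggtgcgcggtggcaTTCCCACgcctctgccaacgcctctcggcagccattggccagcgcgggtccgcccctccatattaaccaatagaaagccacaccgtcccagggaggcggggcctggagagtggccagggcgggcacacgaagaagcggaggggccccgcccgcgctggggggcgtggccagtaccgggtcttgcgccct
The *Rbpj* site stood in 2 of the 33 members with a promoter entry (6.06%, *Hey2* and *Npas2*) and in 6.18% of all genes with one. Of 26 genes fixed as the Notch pathway, 19 were listed. At E11.5, 9 of the 19 were called higher and 9 lower, at E13.5, 3 higher and 13 lower, and at E15.5, 1 higher and 9 lower, where 36.8%, 32.1% and 25.8% of all genes were higher and 44.9%, 43.5% and 31.6% lower in order of stage. The receptors *Notch1*, *Notch2* and *Notch3* were lower in EGFP+ cells at each stage, with *Notch1* at -2.20, -3.13 and -2.87 on the log2 scale. The ligands *Dll3* (1.70) and *Jag2* (1.49) were higher at E11.5. The median of the 19 was -0.32, -0.70 and -0.55 at the 3 stages, and that of all genes -0.19, -0.19 and -0.11. Of the 6 Groucho corepressors, which Hes and Hey proteins recruit, *Tle1*, *Tle2* and *Tle4* were listed. None of the 3 was called at E11.5, 2 were higher and 1 lower at E13.5, and at E15.5 *Tle4* was higher (2.52) and *Tle1* lower (-1.38).

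*Id1*, *Id3* and *Id4* were lower in EGFP+ cells at all 3 stages, and *Id2* was not. Id proteins have no basic region, and by pairing with E proteins they keep them off DNA. *Id1* measured 7.64 and 6.09 FPKM (E11.5), 1.57 and 0.885 FPKM (E13.5), then 1.20 and 1.65 FPKM (E15.5) in EGFP+ cells, against 32.2 and 28.9 FPKM (E11.5), 10.4 and 7.21 FPKM (E13.5), then 8.90 and 6.35 FPKM (E15.5) in EGFP- cells. For *Id3* the EGFP+ libraries held 7.36 and 5.29 FPKM (E11.5), 0.386 and 0.186 FPKM (E13.5), then 0.872 and 0.756 FPKM (E15.5), and the EGFP- libraries 69.2 and 49.3 FPKM (E11.5), 9.02 and 2.64 FPKM (E13.5), then 14.0 and 6.38 FPKM (E15.5). *Id4* measured 35.5 and 35.0 FPKM (E11.5), 12.9 and 9.14 FPKM (E13.5), then 5.42 and 5.31 FPKM (E15.5) in EGFP+ cells, and 124 and 128 FPKM (E11.5), 171 and 99.1 FPKM (E13.5), then 32.3 and 13.7 FPKM (E15.5) in EGFP- cells. All 3 genes fell with age in both populations. Their log2 fold changes between the populations ranged from -3.46 (*Id4* at E13.5) to -1.80 (*Id4* at E15.5).

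*Id2* (chr12:25093799-25097140) measured 41.6 and 42.7 FPKM (E11.5), 188 and 166 FPKM (E13.5), then 185 and 203 FPKM (E15.5) in EGFP+ cells, and 49.8 and 36.3 FPKM (E11.5), 108 and 123 FPKM (E13.5), then 177 and 161 FPKM (E15.5) in EGFP- cells. It rose about as much in both, by 2.17 (SE 0.17, limma adjusted p = 5.89e-07) and 1.97 (SE 0.17, limma adjusted p = 8.6e-07) (difference 0.21, 95% interval -0.30 to 0.72). At E11.5 the 2 EGFP+ libraries lay between the 2 EGFP- libraries. The populations differed at E13.5 by 0.61 (SE 0.17, limma adjusted p = 0.00579), and at E15.5 by 0.20 (adjusted p = 0.326). By E15.5 *Id2* stood at 161 to 203 FPKM, where none of the other 3 Id genes exceeded 5.42 FPKM in EGFP+ or 32.3 FPKM in EGFP- libraries.

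The upstream bases of *Id4* are shown because the window holds a GC-rich Smad site, and Id genes are known targets of BMP signalling through Smad proteins. The capitals mark that site (GGCGCC, which reads the same on both strands) and the N-box.
Id4, chr13:48260866-48261115, plus strand: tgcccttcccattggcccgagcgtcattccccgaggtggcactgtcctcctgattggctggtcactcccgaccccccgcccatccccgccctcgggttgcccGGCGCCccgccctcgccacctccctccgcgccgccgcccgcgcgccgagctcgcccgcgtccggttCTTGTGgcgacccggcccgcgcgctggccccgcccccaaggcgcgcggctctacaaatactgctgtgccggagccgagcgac
GGCGCC stood in 8 of the 33 members with a promoter entry (24.2%) and in 10.8% of all genes with one. The median GC content of the windows was 65.6% in the members and 52.4% over all. The 8 were *Foxc1*, *Id2*, *Id4*, *Mycn*, *Neurog1*, *Npas1*, *Olig2* and *Sox8*. Of 20 BMP and Smad genes fixed as a list, 11 were listed, and 9 of them were called lower and 1 higher in EGFP+ cells at E11.5, 4 lower and 1 higher at E13.5, and 3 lower and 2 higher at E15.5. Of all genes, 44.9%, 43.5% and 31.6% were lower and 36.8%, 32.1% and 25.8% higher at these stages. The receptors *Bmpr1a* and *Bmpr1b* were lower at each stage, with log2 values of -1.20 and -1.43 at E11.5. The ligands *Bmp5* (2.01) and *Bmp7* (1.30) were higher at E15.5. The median of the 11 was -1.03, -0.06 and -0.07 at the 3 stages, beside -0.19, -0.19 and -0.11 for all genes.

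The E proteins *Tcf3*, *Tcf4* and *Tcf12*, the common partners of proneural bHLH factors, went separate ways. *Tcf4* measured 47.8 and 57.7 FPKM (E11.5), 85.6 and 87.5 FPKM (E13.5), then 117 and 81.7 FPKM (E15.5) in EGFP+ cells, and 45.1 and 49.6 FPKM (E11.5), 114 and 134 FPKM (E13.5), then 239 and 181 FPKM (E15.5) in EGFP- cells. At E11.5 the libraries of the 2 populations overlapped, and at E15.5 both EGFP- libraries lay far above. The log2 fold change went from 0.15 (adjusted p = 0.501) to -0.51 and -1.08 (SE 0.20, limma adjusted p = 0.000726). The E13.5 call was lost without EGFP+ replicate 1 (log2 -0.49, adjusted p = 0.106) or 2 (log2 -0.52, adjusted p = 0.0927), or without EGFP- replicate 2 (log2 -0.39, adjusted p = 0.161). *Tcf4* rose in both populations, by 0.88 and 2.11, and *Tcf3* and *Tcf12* fell in both. For *Tcf12* the fall was larger in EGFP+ cells (-1.82 against -0.58, a difference of -1.24, limma adjusted p = 0.00042), and its population difference grew from -0.49 (E11.5) to -1.73 by E15.5. The E11.5 call of *Tcf12* was lost without EGFP+ replicate 2 (log2 -0.42, adjusted p = 0.0615) or EGFP- replicate 1 (log2 -0.34, adjusted p = 0.0893). *Tcf3* was lower at the 3 stages, at log2 -0.87, -1.15 and -1.15.

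*Bhlhe22* (chr3:18054174-18057517), a repressor that acts in postmitotic cortical neurons, showed the largest rise of any member. It measured 14.3 and 15.49 FPKM (E11.5), 56.3 and 53.8 FPKM (E13.5), then 49.4 and 48.6 FPKM (E15.5) in EGFP+ cells, and 0.405 and 0.460 FPKM (E11.5), 24.3 and 26.8 FPKM (E13.5), then 50.1 and 56.6 FPKM (E15.5) in EGFP- cells. The EGFP- libraries stood under 0.5 FPKM at E11.5 and at E15.5 slightly above the EGFP+ libraries. The log2 fold change was 3.47 (SE 0.13, limma adjusted p = 1.51e-08) at E11.5, 1.08 (SE 0.13, limma adjusted p = 3.5e-05) for E13.5 and -0.12 (95% interval -0.41 to 0.17) at E15.5. In EGFP- cells the gene rose by 5.24 (SE 0.13, limma adjusted p = 5.4e-10) and in EGFP+ cells by 1.65 (SE 0.13, limma adjusted p = 8.62e-07), a difference of -3.59 (SE 0.19, limma adjusted p = 8.94e-07). The sum of the 7 cortical plate neuron markers in EGFP- cells went from 48.7 to 51.7 FPKM at E11.5 to 787 to 944 FPKM at E15.5 over the same time, and its part in the rise was not tested. Of the 7 listed neuronal bHLH genes outside the rule, 6 were called higher at E11.5 (36.8% of all genes were) and *Atoh8* lower (median 5.01, and -0.19 for all genes), with *Neurod2* at 5.01 and *Neurod6* at 5.28, and at E15.5 *Nhlh2* (3.37) was higher and *Neurod1* (-0.99) and *Neurod4* (-1.50) were lower.

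*Neurog1*, a proneural gene of the dorsal telencephalon, measured 10.3 and 7.64 FPKM (E11.5), 1.20 and 0.673 FPKM (E13.5), then 0.289 and 0.0230 FPKM (E15.5) in EGFP+ cells, and 4.32 and 4.54 FPKM (E11.5), 12.4 and 8.2001 FPKM (E13.5), then 6.05 and 1.40 FPKM (E15.5) in EGFP- cells. At E11.5 both EGFP+ libraries stood above both EGFP- libraries, and at the later stages below. The E11.5 difference of 0.86 missed the threshold (limma adjusted p = 0.0606) and passed it with the block (adjusted p = 0.00569) and with only the E11.5 groups in the fit (adjusted p = 0.00198). Its log2 fold change was -2.53 (SE 0.39, limma adjusted p = 0.000153) at E13.5 and -1.84 (SE 0.39, limma adjusted p = 0.0021) at E15.5, and the change from E11.5 to E15.5 was -2.70 (SE 0.56, limma adjusted p = 0.0017). The 4 intermediate progenitor markers, one of them the proneural gene *Neurog2*, had the same order, with 223 to 239 FPKM in EGFP+ and 63.9 to 69.4 FPKM in EGFP- cells at E11.5, and 22.2 to 38.3 and 144 to 248 FPKM at E15.5. Their part in the values of *Neurog1* was not tested.

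*Olig2*, which acts in ventral and oligodendrocyte progenitors, measured 2.51 and 2.44 FPKM (E11.5), 0.480 and 0.221 FPKM (E13.5), then 0.0290 and 0.0906 FPKM (E15.5) in EGFP+ cells, and 14.96 and 14.9 FPKM (E11.5), 1.68 and 1.13 FPKM (E13.5), then 0.787 and 1.40 FPKM (E15.5) in EGFP- cells. Its log2 fold change was -2.19 (SE 0.18, limma adjusted p = 1.09e-06) at E11.5, followed by -0.83 and -0.97 at the later stages. *Olig1* was called lower at E11.5 and E15.5 (-0.64 and -1.35), and with a pseudocount of 0.1 at E13.5 as well (-1.05, adjusted p = 0.0188). *Olig3*, an early dorsal factor of the hindbrain and thalamus, was lower at E11.5 (0.262 and 0.374 FPKM against 1.61 and 2.82 FPKM; log2 -1.26, SE 0.15, limma adjusted p = 1.09e-05) and was under 0.1 FPKM in every later library. The 10 ganglionic eminence or interneuron markers summed to 232 to 292 FPKM in EGFP- and 19.6 to 20.9 FPKM in EGFP+ cells at E11.5, and to 94.2 to 115 and 3.68 to 4.36 FPKM at E15.5, when *Dlx6* was at 0 in both EGFP+ libraries. Of the oligodendrocyte precursor markers that are not members only *Pdgfra* was listed, at 0.394 to 0.847 FPKM in EGFP- cells at E15.5. The part of such cells in the values of the Olig genes was not tested.

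*Bhlhe40*, a clock-linked repressor, was lower in EGFP+ cells at every stage. It measured 0.403 and 0.469 FPKM (E11.5), 0.553 and 0.509 FPKM (E13.5), then 0.390 and 0.836 FPKM (E15.5) in EGFP+ cells, and 4.98 and 3.45 FPKM (E11.5), 7.21 and 5.89 FPKM (E13.5), then 1.68 and 1.66 FPKM (E15.5) in EGFP- cells, with log2 fold changes of -1.84, -2.30 (SE 0.18, limma adjusted p = 3.65e-06) and -0.74. The last of these lost its call without EGFP+ replicate 1 (log2 -0.54, adjusted p = 0.0521). *Twist2*, a mesenchymal factor, was listed at 0 in all 8 libraries of E13.5 and E15.5. At E11.5 it stood at 1.22 and 2.57 FPKM in EGFP+ and at 0.8003 and 1.03 FPKM in EGFP- cells (log2 0.56, SE 0.17, limma adjusted p = 0.00915), a call lost without EGFP+ replicate 2 (log2 0.22, adjusted p = 0.0904) or EGFP- replicate 1 (log2 0.48, adjusted p = 0.0623), and its exons share 46.5% of their bases with the antisense gene *Gm29100*.

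The 4 Npas genes, which encode bHLH proteins with a PAS domain, each had a different course. *Npas2* (chr1:39193731-39363236), a partner of Bmal1 in the circadian clock, was at most 0.0565 FPKM in all E11.5 libraries. It measured 0.0277 and 0.0441 FPKM (E11.5), 0.577 and 0.471 FPKM (E13.5), then 1.42 and 1.45 FPKM (E15.5) in EGFP+ cells, and 0.0565 and 0.0281 FPKM (E11.5), 0.0382 and 0.0968 FPKM (E13.5), then 0.0864 and 0.205 FPKM (E15.5) in EGFP- cells. At E13.5 and E15.5 it was higher in EGFP+ cells with no overlap of the libraries, by 0.51 (SE 0.10, limma adjusted p = 0.0005) and 1.09 (SE 0.10, limma adjusted p = 5.14e-06), and at E11.5 the difference was -0.0088 (adjusted p = 0.934). In EGFP+ cells it rose by 1.23 (SE 0.10, limma adjusted p = 6.43e-07), and the change of the population difference was 1.10 (SE 0.13, limma adjusted p = 6.33e-05). A level of this size is low, and the highest library stood at 1.45 FPKM.

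*Npas1*, known from interneurons, measured 0.291 and 0.388 FPKM (E11.5), 0.593 and 0.597 FPKM (E13.5), then 1.10 and 0.946 FPKM (E15.5) in EGFP+ cells, and 0.852 and 0.882 FPKM (E11.5), 0.481 and 1.17 FPKM (E13.5), then 9.12 and 6.52 FPKM (E15.5) in EGFP- cells. The 2 EGFP- libraries of E15.5 stood above all 10 other libraries, and the log2 fold change of that stage was -2.11 (SE 0.19, limma adjusted p = 6.02e-06). The smaller E11.5 difference (-0.48) lost its call whichever of its 4 libraries was left out (log2 from -0.53 to -0.43, adjusted p from 0.0696 to 0.134). *Npas3*, active in neural progenitors and in interneurons, measured 3.26 and 3.17 FPKM (E11.5), 1.996 and 0.848 FPKM (E13.5), then 0.394 and 0.364 FPKM (E15.5) in EGFP+ cells, and 10.1 and 8.92 FPKM (E11.5), 6.31 and 5.28 FPKM (E13.5), then 6.22 and 3.38 FPKM (E15.5) in EGFP- cells. It was lower in EGFP+ cells, at log2 -1.32, -1.53 and -2.03 (SE 0.26, limma adjusted p = 6.42e-05). *Npas4*, an activity-dependent factor, was higher at E13.5 by 1.06 (SE 0.37, limma adjusted p = 0.022), lost without EGFP+ replicate 2 (log2 0.87, adjusted p = 0.12) or EGFP- replicate 1 (log2 0.66, adjusted p = 0.201). At E15.5 its difference of 0.47 (adjusted p = 0.296) was called with the block (adjusted p = 0.0134) and without EGFP- replicate 2 (log2 0.96, adjusted p = 0.0495).

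*Myc* proteins pair with Max to drive growth, and Mxd proteins compete with them for Max. *Mxd4* measured 37.8 and 37.8 FPKM (E11.5), 38.1 and 38.2 FPKM (E13.5), then 38.1 and 38.0 FPKM (E15.5) in EGFP+ cells, and 17.7 and 16.4 FPKM (E11.5), 24.1 and 26.7 FPKM (E13.5), then 28.7 and 34.7 FPKM (E15.5) in EGFP- cells. The 6 EGFP+ libraries thus lay within 0.5 FPKM of each other, the change from E11.5 to E15.5 was 0.011 (95% interval -0.29 to 0.31), and the gene rose in EGFP- cells by 0.85 (SE 0.14, limma adjusted p = 9.8e-05). It was higher in EGFP+ cells by 1.10 at E11.5 and 0.57 at E13.5. *Mxd1* fell in EGFP+ cells from 13.2 and 14.6 FPKM at E11.5 to 3.71 and 3.74 FPKM at E15.5 (log2 -1.65, SE 0.15, limma adjusted p = 1.67e-06), while its EGFP- libraries stayed between 5.86 and 7.57 FPKM. The population difference of *Mxd1* changed sign, being 1.11 at E11.5 and -0.65 at E15.5 (change: log2 -1.76, SE 0.21, limma adjusted p = 4.94e-05).

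*Myc* was higher in EGFP+ cells at E11.5 (7.08 and 8.79 FPKM against 2.89 and 3.79 FPKM) and E13.5 (22.4 and 23.6 FPKM against 10.8 and 11.8 FPKM), by 1.04 (SE 0.16, limma adjusted p = 9.39e-05) and 0.97 (SE 0.16, limma adjusted p = 0.000245). *Mycn* was lower at E11.5 (log2 -0.90, SE 0.24, limma adjusted p = 0.00429), and in both populations both of its E13.5 libraries stood above the 4 libraries of the other stages. In EGFP- cells the margin was slight, with 58.3 and 60.4 FPKM at E13.5 against 58.0 FPKM in E15.5 replicate 1. *Mycl1*, named *Mycl* in the annotation, measured 22.8 to 64.3 FPKM and rose in both populations, by 0.68 and 1.22. It was called at no stage, and at E15.5 its difference of -0.34 was called lower with the block (adjusted p = 0.0256). At E15.5 the log2 difference of *Mycn* was -0.21 and was called only without EGFP- replicate 2 (log2 -0.61, adjusted p = 0.0359).

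From E11.5 to E15.5, 14 members rose and 27 fell in EGFP+ cells (33.3% and 42.1% of all genes did), and in EGFP- cells 16 rose and 27 fell (37.7% and 47.6% of all genes). The 13 that rose in both (24.6% of all genes did) were *Bhlhe22*, *Foxo3*, *Foxo6*, *Foxred2*, *Id2*, *Myc*, *Mycl1*, *Mycn*, *Npas1*, *Npas4*, *Sox4*, *Sox5* and *Tcf4*. The 22 that fell in both (32.7% of all genes) included all SoxB genes, *Id1*, *Id3*, *Id4*, *Foxm1*, *Hey1*, *Tcf3*, *Tcf12* and *Olig2*. No member was called in opposite directions, where 6.81% of all genes were. The rise of *Mycn* in EGFP- cells (0.58) was lost without either E11.5 replicate, without E15.5 replicate 1 (log2 from 0.19 to 0.65, adjusted p from 0.0767 to 0.443), under the other scaling (0.39, adjusted p = 0.119) and with only the EGFP- groups in the fit (adjusted p = 0.0746). Among other stage calls that rested on 1 library were, in EGFP+ cells, the fall of *Foxo4* without replicate 2 of either stage (adjusted p from 0.0604 to 0.0667) and of *Olig3* without any 1 of its 4 libraries (0.0532 to 0.14), and the rise of *Npas1* without replicate 1 of either stage (0.0628 to 0.0707). In EGFP- cells they were the falls of *Hey2* without E11.5 or E15.5 replicate 2 (adjusted p from 0.06 to 0.106), of *Npas3* (log2 -0.54, adjusted p = 0.0762) and of *Tcf3* (log2 -0.47, adjusted p = 0.0668) and the rise of *Npas4* (log2 0.80, adjusted p = 0.0727), each of these 3 without E15.5 replicate 2.

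The populations differed in their stage change for 27 members, 12 in which the change from E11.5 to E15.5 was higher in EGFP+ cells and 15 in which it was lower (32% and 27.7% of all genes). This comparison shares its libraries with the comparisons of populations and of stages and adds no separate evidence to them. The largest differences were those of *Bhlhe22* (-3.59), *Neurog1* (-2.70), *Sox6* (-2.23) and *Sox11* (-2.18), each lower in EGFP+ cells. Among those in the other direction were *Foxc1* (1.33), *Olig3* (1.26), *Olig2* (1.23), *Sox2ot* (1.11), *Bhlhe40* (1.10), *Npas2* (1.10) and *Sox5* (1.09). Of these 7, *Npas2* and *Sox5* had the larger rise in EGFP+ cells. The other 5 fell in EGFP- cells on the log2(FPKM + 1) scale and fell less, or were not called, in EGFP+ cells. The E11.5 level of these 5 was lower in EGFP+ than in EGFP- cells. Without the added 1, the EGFP- mean of *Foxc1* was 7.91 times the EGFP+ mean at E11.5 and 7.27 times at E15.5. For *Olig2* it was 6.02 times and 18.3 times, and for *Olig3*, *Sox2ot* and *Bhlhe40* the ratio was smaller at E15.5. With a pseudocount of 0.1 the value of *Olig2* turned to -0.34 (adjusted p = 0.598).

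**Figure D4:**
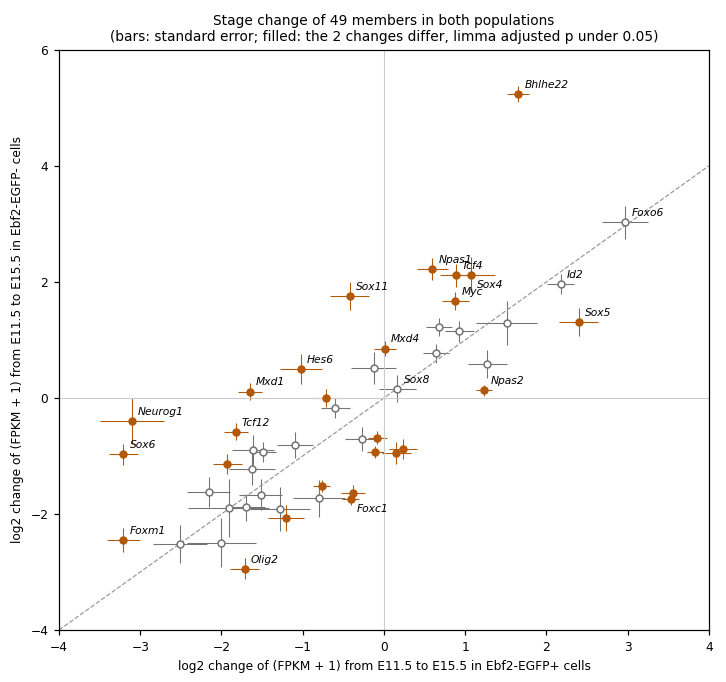
Log2 change of FPKM + 1 between the first and the last stage in Ebf2-EGFP+ cells (horizontal axis) and in Ebf2-EGFP- cells (vertical axis) of 49 of the 51 members, with standard errors as bars. The dashed line marks equal change, and filled points are the 26 of them whose 2 changes differ (limma adjusted p under 0.05). *Bhlhe22* lies highest, at 1.65 and 5.24.

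Some members had their highest or lowest libraries at the middle stage. Both E13.5 libraries lay above the 4 other libraries of the same population for 6 members in EGFP+ cells (*Bhlhe22*, *Foxp4*, *Myc*, *Mycn*, *Sox5* and *Sox9*), where 5.02% of all genes did so. In EGFP- cells 6 members did so (*Bhlhe40*, *Hey1*, *Mxd1*, *Mycn*, *Neurog1* and *Sox8*), against 5.97% of all genes. Both E13.5 libraries lay below the other 4 for *Foxo3*, *Id3*, *Olig1* and *Sox2ot* in EGFP+ cells (13.1% of all genes) and for *Olig1* and *Sox2ot* in EGFP- cells (6.54%). Some of these margins were slight. *Mycn* of EGFP- cells stood at 58.3 FPKM in the lower E13.5 library and at 58.0 FPKM in E15.5 replicate 1. For *Sox9* of EGFP+ cells the values were 5.53 FPKM in the lower E13.5 library and 5.45 FPKM in E11.5 replicate 1. For *Foxo3* of EGFP+ cells they were 9.06 FPKM in the higher E13.5 library and 9.08 FPKM in E11.5 replicate 1. No test was made of these patterns.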

How the data were processed

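RNA of FACS-sorted Ebf2-EGFP+ and Ebf2-EGFP- cells was selected with oligo(dT) beads and sequenced by the authors. Per the labels and the submitters' processing notes, reads were aligned to mm10 with TopHat2 2.0.8b and quantified with Cufflinks 2.2.0, and differential genes were selected with Cuffdiff. The methods of the study also name Cuffdiff, whereas its results text names DE-Seq for the 4859 genes. The authors deposited FPKM per library for the 4859 selected coding genes, so genes outside that selection were not tested here, and columns of their own fold changes and p-values were not used. Their table of long noncoding RNAs was not used. No read counts come with the FPKM values. A check for whole fragments placed 36.9% to 65.3% of the genes under 0.15 FPKM on a grid of small fragment numbers (tolerance 0.5%), so counts were not recovered and the depth behind each value is unknown.

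Groups follow the GEO labels. The values were taken as log2(FPKM + 1) with no filter, and all 12 libraries were fitted as 6 groups with limma 3.58.1 in R 4.3.3, with empirical Bayes moderation and a trend on mean expression. The tested contrasts were the 3 between the populations, 1 for each stage, E15.5 against E11.5 in each population, and the difference between these 2. P-values were adjusted by Benjamini-Hochberg over all 4859 genes and a call is an adjusted p under 0.05. The script was tested on simulated data. The members and the lists of partner and marker genes were chosen with earlier results of these data known. All members are named but 2, which are counted and not otherwise reported here, and values per library are given for those called with an absolute log2 change of at least 2 in any contrast, and for others where a sentence needs them.

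Libraries of the 2 populations with the same stage and replicate number deviated together (correlations of deviations from the group means over all genes of 0.431, 0.534 and 0.431 in order of stage), so a fit with the replicate number as a block was an alternative. The pairing is inferred from these correlations, since neither the labels nor the methods state that such libraries share a sort. The others were a pseudocount of 0.1, median-of-ratios scaling, a mean of at least 1 FPKM, no variance trend, only the compared groups, a 2-fold minimum, and each library left out. Positions are from GENCODE M21 and promoters from RefSeq, both on GRCm38, which is the mm10 assembly.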

Additional observations from a re-analysis of the deposited data

Results flagged for a closer look

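For 26 of the members reported here the change from E11.5 to E15.5 differed between Ebf2-EGFP+ and Ebf2-EGFP- cells, by the limma test of the difference itself, and the values are differences of log2 changes with adjusted p under 0.05. Over all 51 members, 23.5% had a positive and 29.4% a negative difference, where 32% and 27.7% of all 4859 listed genes did. Such a difference was thus common in the whole list and not particular to the members. The difference was negative, so that Ebf2-EGFP+ cells gained less or lost more, for *Bhlhe22* (-3.59), *Neurog1* (-2.70), *Sox6* (-2.23), *Sox11* (-2.18), *Mxd1* (-1.76), *Npas1* (-1.63), *Hes6* (-1.52), *Tcf12* (-1.24), *Tcf4* (-1.23), *Sox4* (-1.06), *Mxd4* (-0.84), *Foxp2* (-0.79), *Myc* (-0.79), *Foxm1* (-0.76) and *Olig1* (-0.71). It was positive for *Foxc1* (1.33), *Olig3* (1.26), *Olig2* (1.23), *Sox2ot* (1.11), *Bhlhe40* (1.10), *Npas2* (1.10), *Sox5* (1.09), *Sox13* (0.87), *Heyl* (0.83), *Foxd1* (0.76) and *Foxf2* (0.61).

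Besides the members whose losses are given in the report, *Foxm1* lost its call in 7 of the 8 omissions of 1 library, all but that of E15.5 Ebf2-EGFP- replicate 2 (adjusted p from 0.0655 to 0.133), and under median-of-ratios scaling (adjusted p = 0.0903). *Foxp2* lost it without E11.5 or E15.5 Ebf2-EGFP+ replicate 1 or E11.5 Ebf2-EGFP- replicate 2 (adjusted p from 0.0524 to 0.0687), under that scaling (0.0604) and with a pseudocount of 0.1 (0.051). *Myc* lost it without E11.5 replicate 2 of either population (adjusted p from 0.0507 to 0.0533), and *Olig1* without E11.5 Ebf2-EGFP+ replicate 1 or replicate 2 of either Ebf2-EGFP- stage (0.052 to 0.0653). *Foxd1* (adjusted p = 0.0759) and *Foxf2* (0.128) lost it with a pseudocount of 0.1.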

How the results depend on the processing

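With a pseudocount of 0.1, the members whose change with age was higher in Ebf2-EGFP+ cells numbered 7 in place of 12, and the difference of *Olig2* turned to -0.34. Among genes with a mean of at least 1 FPKM they numbered 6, and 1 member in place of 2 was called higher at E15.5. With a 2-fold minimum the higher calls were 3 in place of 7 at E13.5 and 1 in place of 2 at E15.5, the lower calls at E15.5 were 20 in place of 31, the rises in Ebf2-EGFP+ cells 8 in place of 14, and the falls in Ebf2-EGFP- cells 17 in place of 27. Leaving out 1 library at a time gave 8 to 10 higher and 26 to 28 lower calls at E11.5, 6 to 8 and 24 to 27 at E13.5, and 2 to 2 and 27 to 31 at E15.5. For the change with age it gave 12 to 15 rises and 22 to 26 falls in Ebf2-EGFP+ cells, 14 to 18 and 24 to 28 in Ebf2-EGFP- cells, and 9 to 15 positive and 10 to 16 negative differences between them.

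Of 204 member values for which the replicate number could be a block, the replicate block added 18 calls and lost 0. Those at single stages stand in the report, apart from 1 that is not reported here, and the other 8 are differences of stage changes: *Foxj1* (-0.54), *Foxp4* (-0.64), *Mycl1* (-0.54), *Mycn* (0.69), *Npas3* (-0.71), *Sox21* (0.64), *Sox9* (0.93) and *Twist2* (-0.56). It changed no other call, and it could not be used between stages of 1 population, since the stages come from different embryos. Of 306 member values, median-of-ratios scaling kept the call of 295, and the fit of only the compared groups of 295. That scaling moved the median of all genes from -0.19 to -0.34 at E11.5, from -0.32 to -0.48 for Ebf2-EGFP- cells with age and from 0.17 to 0.36 for the difference of the changes, where the median member went from -0.093 to 0.14. The cause of these shifts was not tested. Without read counts, how depth limits the members under 1 FPKM is not known.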
